A study of Drosophila melanogaster with 8 samples.

Results

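The question addressed was whether the transcript response to a mutation in a soluble guanylyl cyclase depends on the foraging background of the larva. All 8 arrays of the series entered, 4 of the Rover background and 4 of the sitter background. They were chosen by their titles, and every array of the series belongs to the comparison. Each spotted 2-colour array held, per the labels, RNA of control Rover or sitter larvae in channel 1 and RNA of larvae of the same background with the allele DGCalpha1[3] in channel 2. All larvae were untreated and in the third instar, the last larval stage before the pupa. The value of an array is thus already a mutant and control comparison, and the Rover mean minus the sitter mean is the interaction of mutation and background. How the allele was brought into each background, the sex of the larvae and whether each array had its own RNA extract are not given in the sources used here. P-values therefore set a difference against the scatter of the arrays within a background, and some or all of that scatter may be technical.

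Soluble guanylyl cyclase is the receptor of nitric oxide and makes the second messenger cGMP. DGCalpha1 is an older name of Gycalpha99B, the gene of its alpha subunit. Rover and sitter are natural alleles of foraging (for), a gene for a cGMP-dependent protein kinase that cGMP activates. Rover larvae travel farther on food than sitter larvae. Mutation of the cyclase and variation of the kinase thus touch successive steps of the same pathway. Larval RNA of this stage comes from fat body, gut, muscle, salivary gland, epidermis, nervous system and blood cells together. In such mixed RNA, fewer cells of a type and less RNA per cell cannot be told apart.

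A ratio is given as the log2 of 1 channel over the other after the median of each array was subtracted. The channel in the numerator, the dyes and the log base are not given, and base 2 is assumed. A positive ratio is therefore not read as more RNA in the mutant. "Higher in Rover" means that the ratio was more positive in Rover than in sitter, and this order would turn if the numerator were the control. Opposite signs in the backgrounds and the size of a difference do not depend on the numerator, provided that all arrays run the same way. Between arrays of different backgrounds the correlation of ratios over 19325 features was 0.31 to 0.64, and within a background it was 0.37 to 0.67. A dye or channel bias shared by all arrays could also give positive correlations. They therefore cannot show that mutant and control run the same way on every array.

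The arrays differed in median and scale. Before centring, array medians lay between -0.50 and -0.11. The spread of ratios, as a scaled median absolute deviation, was 0.55 to 0.79 on 5 arrays, whose Cy5 gain during scanning was 64. It was 0.31 to 0.45 on the other 3, scanned at 67 or 68. Rover had 3 arrays of the wider kind and sitter 2. Replicate 1 of each background came from one print lot (lot A here) and replicates 2 to 4 from another (lot B). Arrays of lot A were hybridised for 15.75 h and those of lot B for 17.75 h, so lot and hybridisation time cannot be told apart.

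The ratio of the targeted gene overlapped between the backgrounds. Its 2 spots averaged -0.41, -0.57, 0.63 and 0.95 on Rover arrays 1 to 4. On sitter arrays 1 to 4 they averaged 0.29, -0.30, -0.01 and -0.26. Rover arrays 3 and 4 were highest and Rover arrays 1 and 2 lowest. The difference of 0.22 ± 0.34 (SE) had a two-sided exact permutation p of 0.629, where 4 against 4 arrays can reach 0.0286 at the least. It was 0.53 within lot B and -0.43 within the higher gain. Where the allele alters the gene relative to the spotted clone is not known here, and the labels therefore have no firm check from it.

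Few features passed the test of a difference between backgrounds. Over the 6793 named genes the difference between backgrounds had a median of 0.04 and lay between -0.42, the 5th percentile, and 0.49, the 95th, for most genes. A difference beyond 1 in either direction was found for 69 genes, 45 of them higher in Rover. The median standard error of a difference was 0.20. The limma test called 15 of 19325 features (0.0776%) at an adjusted p under 0.05, 12 of them higher in Rover (0.0621%) and 3 lower (0.0155%). Among them were 6 named genes (0.0883% of the named genes). The protease CG11911 was lower in Rover (0.0147%), and CG9360, Prx6c, CG7382, Alp7 and PPO2 were higher (0.0736%). Fitted on the named genes alone, with adjustment over 6793 tests, the test called 24 genes (0.353%), 17 higher (0.25%) and 7 lower (0.103%), and these included all 6. At an unadjusted p under 0.05 there were 645 named genes (9.5%), 472 higher (6.95%) and 173 lower (2.55%).

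**Figure D1:**
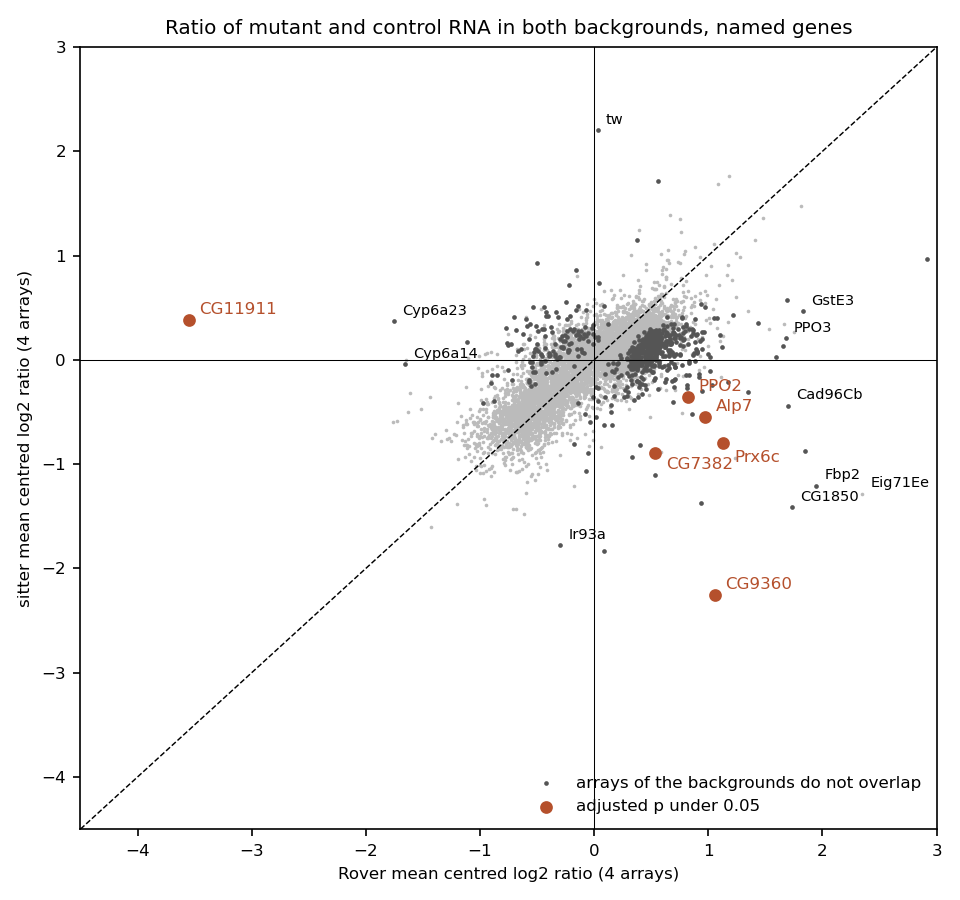
Mean centred log2 ratio of mutant and control RNA in Rover (horizontal) and sitter (vertical) for 6793 named genes, 4 arrays each. Dark points are the 611 genes whose Rover and sitter arrays do not overlap, and coloured points the 6 genes with an adjusted p under 0.05. The dashed line marks equal ratios. All 6 coloured genes lie in the quadrants where the means have opposite signs, and CG11911 (-3.55, 0.38) and CG9360 (1.06, -2.26) lie farthest from the line among them.

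After centring, all 6 named genes had means of opposite sign in the 2 backgrounds. For CG11911 and PPO2, however, limma did not call the sitter mean against 0 (adjusted p = 0.0849 and 0.0595). CG11911, which encodes a serine protease of the trypsin type, stood furthest apart. Its ratios were -3.68, -3.29, -3.97 and -3.27 on Rover arrays 1 to 4 and 0.54, 0.52, 0.27 and 0.18 on sitter arrays 1 to 4. As centred, every Rover array was strongly negative and every sitter array weakly positive, with a gap of 3.45 between the nearest arrays. The difference was -3.93 ± 0.20 (SE; adjusted p = 8.78e-05), which is 15.3-fold between the ratios.

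CG9360, a gene of the short-chain dehydrogenase family, ran the other way. On Rover arrays 1 to 4 it was at 0.68, 0.99, 1.76 and 0.81. On sitter arrays 1 to 4 it was at -2.19, -2.59, -2.19 and -2.06. The nearest arrays were 2.74 apart, and the difference was 3.32 ± 0.25 (SE; adjusted p = 0.000844), or 9.96-fold. These 2 genes passed in each of the 8 fits that left out an array, with adjusted p of at most 0.00126 for CG11911 and 0.00756 for CG9360. After the arrays were scaled to a common spread, CG9360 passed (3.66, adjusted p = 0.0355) and CG11911 did not (-3.48, adjusted p = 0.0584).

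Prx6c encodes a peroxiredoxin, an enzyme that reduces peroxides. Its ratios were 1.69, 1.24, 0.94 and 0.66 on Rover arrays 1 to 4 and -0.52, -0.88, -0.95 and -0.83 on sitter arrays 1 to 4. All Rover arrays lay above 0 and all sitter arrays below, a difference of 1.93 ± 0.23 (SE; adjusted p = 0.025). Its relative Prx6a differed by -0.00 ± 0.22 (SE), with means of 0.27 in both backgrounds. Of the 9 measured peroxiredoxin and redox genes 6 were higher in Rover and 3 lower. An unadjusted p under 0.05 was found for 2 (22.2%), Prx6c and Trxr1 (0.45 ± 0.18 SE; adjusted p = 0.51). Prx3 differed by 0.43 and Trxr2 by 0.23 (adjusted p of 0.637 and 0.693). For Alp7, an alkaline phosphatase gene, the Rover arrays ran from 0.80 to 1.27 and the sitter arrays from -0.84 to -0.29. The difference was 1.52 ± 0.19 (SE; adjusted p = 0.0365).

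PPO2 encodes a prophenoloxidase, the enzyme precursor that crystal cells of the blood release to form melanin. It was at 0.75, 0.81, 0.93 and 0.78 on Rover arrays 1 to 4 and at -0.26, -0.10, -0.47 and -0.60 on sitter arrays 1 to 4. The Rover values were close together (SD 0.08, n = 4) and none reached the range of sitter, with a difference of 1.18 ± 0.16 (SE; adjusted p = 0.0438). PPO3, the prophenoloxidase of lamellocytes, was positive on every Rover array (1.32 to 1.91) and ran from -0.43 to 0.88 in sitter. Its difference was 1.47 ± 0.27 (SE; adjusted p = 0.126, and 0.049 among named genes alone). Some markers of plasmatocytes, the main blood cells, differed less, with adjusted p of 0.761 to 0.902. They were Hml (0.11), NimC1 (0.18), Pxn (0.17) and eater (0.17). Hml, NimC1 and eater were picked after their values were seen, and not all listed blood cell genes are shown. Of the 14 measured genes of melanisation and blood cells, 1 was called (PPO2), 8 were higher in Rover and 6 lower. The lowest was ple (-0.52 ± 0.27 SE; adjusted p = 0.602).

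CG7382 was called through only some of its spots. As the mean of 4 spots its Rover arrays lay at 0.30 to 0.86 and its sitter arrays at -1.08 to -0.75. The difference was 1.43 ± 0.17 (SE; adjusted p = 0.025). The first pair of spots differed by -0.08 and -0.23 between backgrounds, and the second pair by 2.79 and 3.19. In the second pair the sitter arrays stood at -2.58 to -1.75 and the Rover arrays at 0.64 to 1.47. The gene name of these spots comes from the array annotation, and which pair reports CG7382 cannot be told from the files. Prx6c had the same sign in all 4 spots, 1.16 and 1.61 in the first pair and 2.51 and 2.41 in the second. The 2 spots of Alp7 gave 1.46 and 1.57, those of PPO2 1.12 and 1.22, those of CG11911 -3.98 and -3.90, and those of CG9360 3.27 and 3.34. For comparison, the 2 spots of a gene differed by a median of 0.15 over the 6106 genes with 2 spots.

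**Figure D2:**
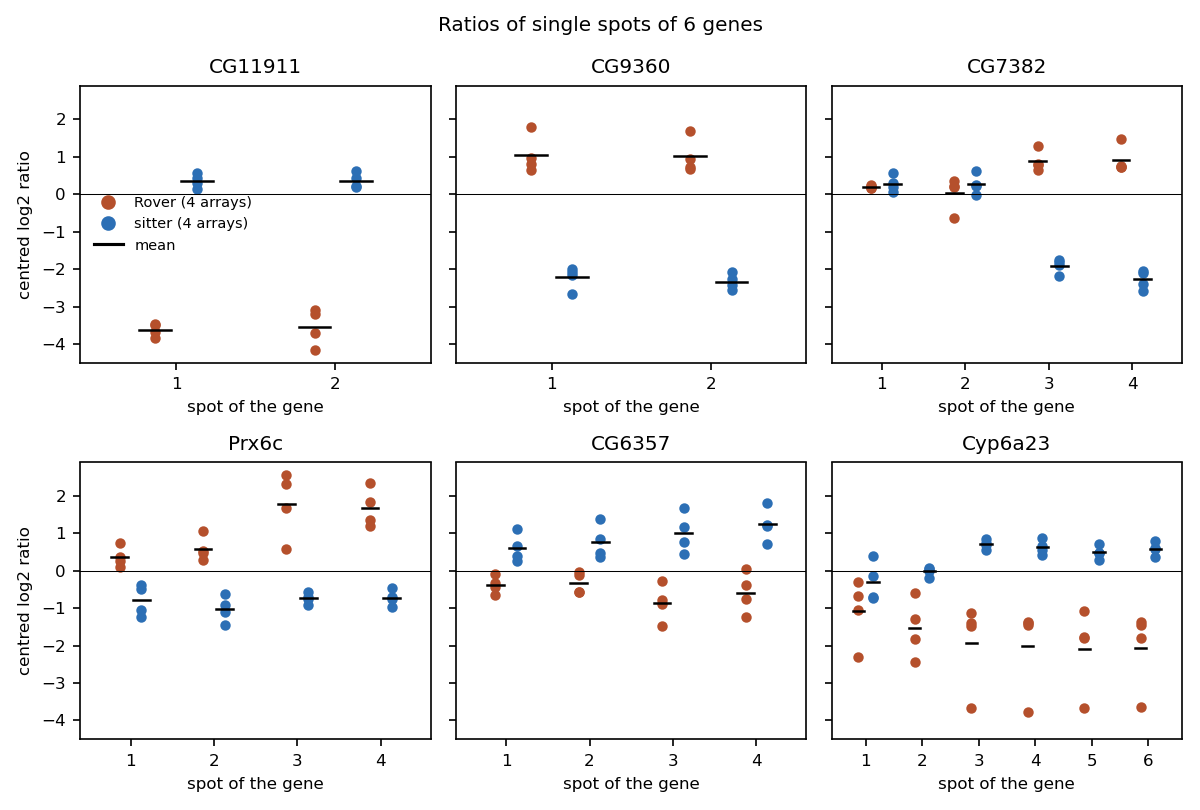
Centred log2 ratio of each spot of 6 genes on the 4 Rover and 4 sitter arrays, with the mean as a bar. Both spots of CG11911 and CG9360 separate the backgrounds, whereas spots 1 and 2 of CG7382 do not (differences of -0.08 and -0.23) and spots 3 and 4 do (2.79 and 3.19).

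Leaving out any 1 of the 8 arrays ended the call of Alp7 (adjusted p of 0.0772 to 0.125), CG7382 (0.0503 to 0.11) and PPO2 (0.0772 to 0.18), while their differences stayed at 1.10 or above. Prx6c passed without Rover replicate 1 or 4 and did not without each of the other arrays (adjusted p up to 0.117). After scaling, none of these 4 passed (adjusted p of 0.0693 to 0.0807), with differences of 1.15 to 1.97. Within print lots the differences of the 6 genes had the sign of the whole. CG11911 was at -4.22 in the single pair of lot A and -3.84 in lot B, and at -3.91 and -4.04 within the lower and the higher Cy5 gain. The smallest of the other 5 was PPO2, at 1.01 in lot A, 1.23 in lot B, 1.13 at the lower gain and 1.18 at the higher.

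Next in order of p came genes that did not pass over all features but passed among named genes alone. Gs1, the mitochondrial glutamine synthetase, was at 0.54 to 1.22 in Rover and at -0.76 to -0.19 in sitter (difference 1.37 ± 0.20 SE; adjusted p = 0.0625). mRpS34, a protein of the mitochondrial ribosome, had Rover values of 0.64 to 1.76 and sitter values of -0.58 to 0.04 (1.65 ± 0.26 SE; 0.0705, and 0.0175 without Rover replicate 3). The cadherin gene Cad96Cb, for a cell adhesion protein, had Rover values of 1.14 to 2.71 against -0.87 to -0.04 in sitter (2.14 ± 0.34 SE; 0.0705). Ir93a, a receptor of the ionotropic family used for temperature and humidity sensing, was negative in both backgrounds. Its Rover mean was not called against 0 by limma (adjusted p = 0.183). Rover lay at -0.68 to -0.12 and sitter at -2.28 to -1.13 (1.48 ± 0.25 SE; 0.0936). CG8306 differed by 0.88, jef by 0.99 and nsr by 0.98 (adjusted p of 0.0781, 0.0941 and 0.0947). For each of these genes the lowest Rover array lay above the highest sitter array.

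On the lower side CtsL2, a cathepsin-type cysteine protease, came closest to the threshold. It was at -0.70, -0.95, -0.88 and -0.56 on Rover arrays 1 to 4 and at 0.31, 0.20, 0.48 and 0.24 on sitter arrays 1 to 4. As centred, the signs were opposite on all arrays, though limma did not call the sitter mean against 0 (adjusted p = 0.0785). The difference was -1.08 ± 0.15 (SE; adjusted p = 0.0527, and 0.0195 among named genes alone). CG6357, another cysteine protease gene, was negative in Rover (-0.82 to -0.14) and positive in sitter (0.57 to 1.52), and differed by -1.43 ± 0.24 (SE; 0.0858). Rab26, a small GTPase of secretory vesicles, stood at -0.77 to -0.25 in Rover and 0.27 to 0.50 in sitter (-0.99 ± 0.16 SE; 0.083).

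The cytochrome P450 genes Cyp6a14 and Cyp6a23 were low in Rover and near 0 or above in sitter. Cyp6a14 was at -1.80, -1.99, -1.96 and -0.88 on Rover arrays 1 to 4 and between -0.18 and 0.16 in sitter (-1.62 ± 0.25 SE; adjusted p = 0.0705, and 0.00799 without Rover replicate 4). Cyp6a23 was at -1.19, -1.19, -3.23 and -1.41 on Rover arrays 1 to 4 and between 0.26 and 0.52 in sitter (-2.12 ± 0.42 SE; 0.138). Its adjusted p was 0.0113 without Rover replicate 3 and 0.391 at the most without another array. Its 6 spots had the same sign, from -2.65 to -0.79. Cyp6a23 belongs to a cluster of similar Cyp6a genes, and related transcripts may bind the same spotted cDNA.

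tw and CG3251 were positive in sitter and lower in Rover. For tw, a protein O-mannosyltransferase, sitter stood at 2.01 to 2.68 and Rover at 0.59, 0.52, -1.06 and 0.06 on arrays 1 to 4 (-2.17 ± 0.35 SE; adjusted p = 0.0781). CG3251 had 1.35 to 1.91 in sitter and 0.24 to 0.93 in Rover (-1.16 ± 0.20 SE; 0.0947). The remaining genes of this side were Lime, a zinc finger factor linking immunity and metabolism (-1.28, adjusted p = 0.183), CG10764 (-0.84, 0.183), the histone demethylase Kdm4A (-1.02, 0.186) and CG9641 (-0.83, 0.194). Kdm4A was nearly flat in Rover, at -0.21 to -0.10, and ran from 0.30 to 1.39 in sitter.

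**Figure D3:**
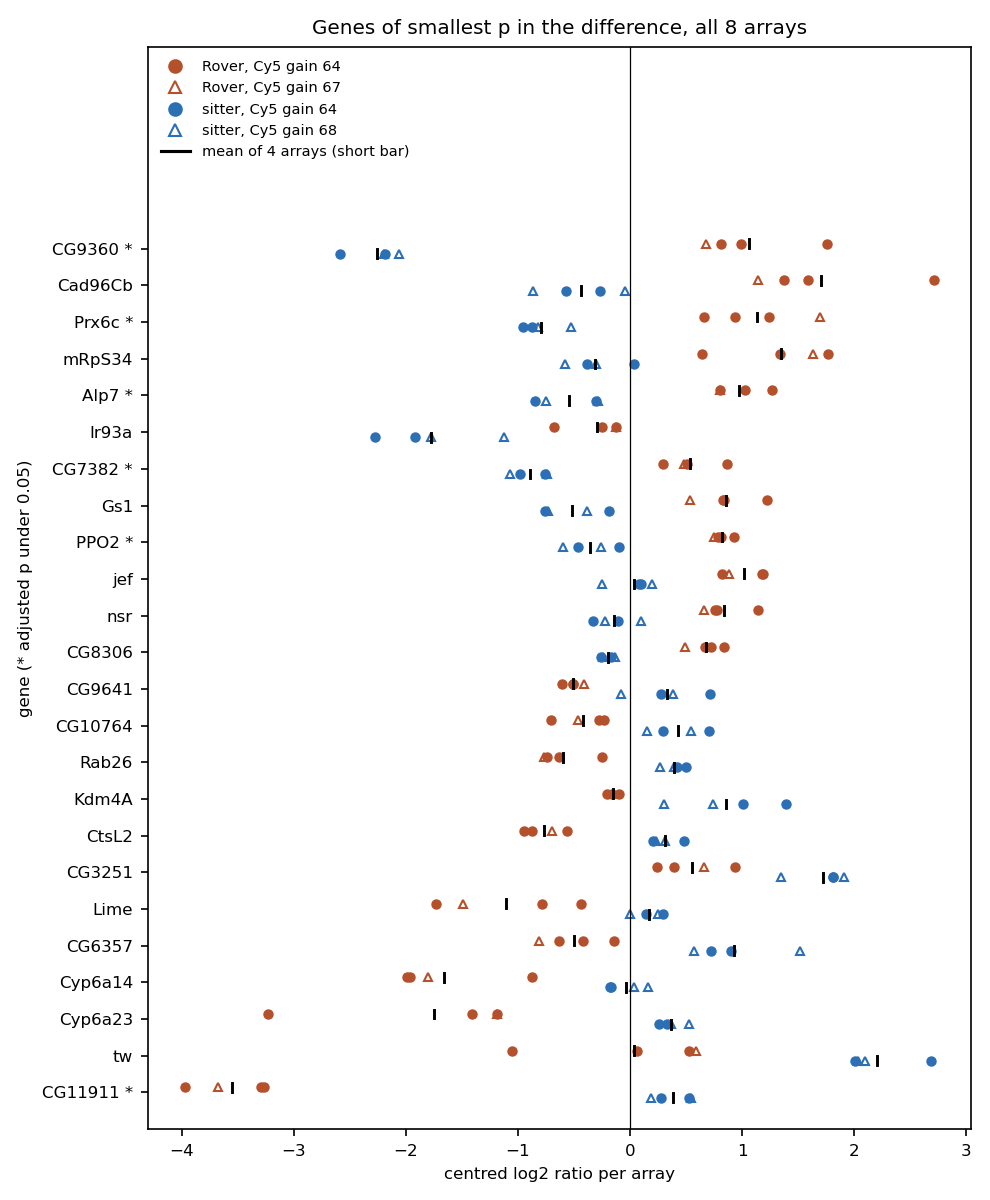
Centred log2 ratio on each of the 8 arrays for the 12 genes per direction with the smallest p in the difference. Filled circles are arrays scanned at a Cy5 gain of 64, open triangles those at 67 or 68, and short bars the mean of 4 arrays. Genes are ordered by the difference, from CG9360 (3.32) to CG11911 (-3.93), and in each gene the Rover and sitter arrays are separate.

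**Figure D4:**
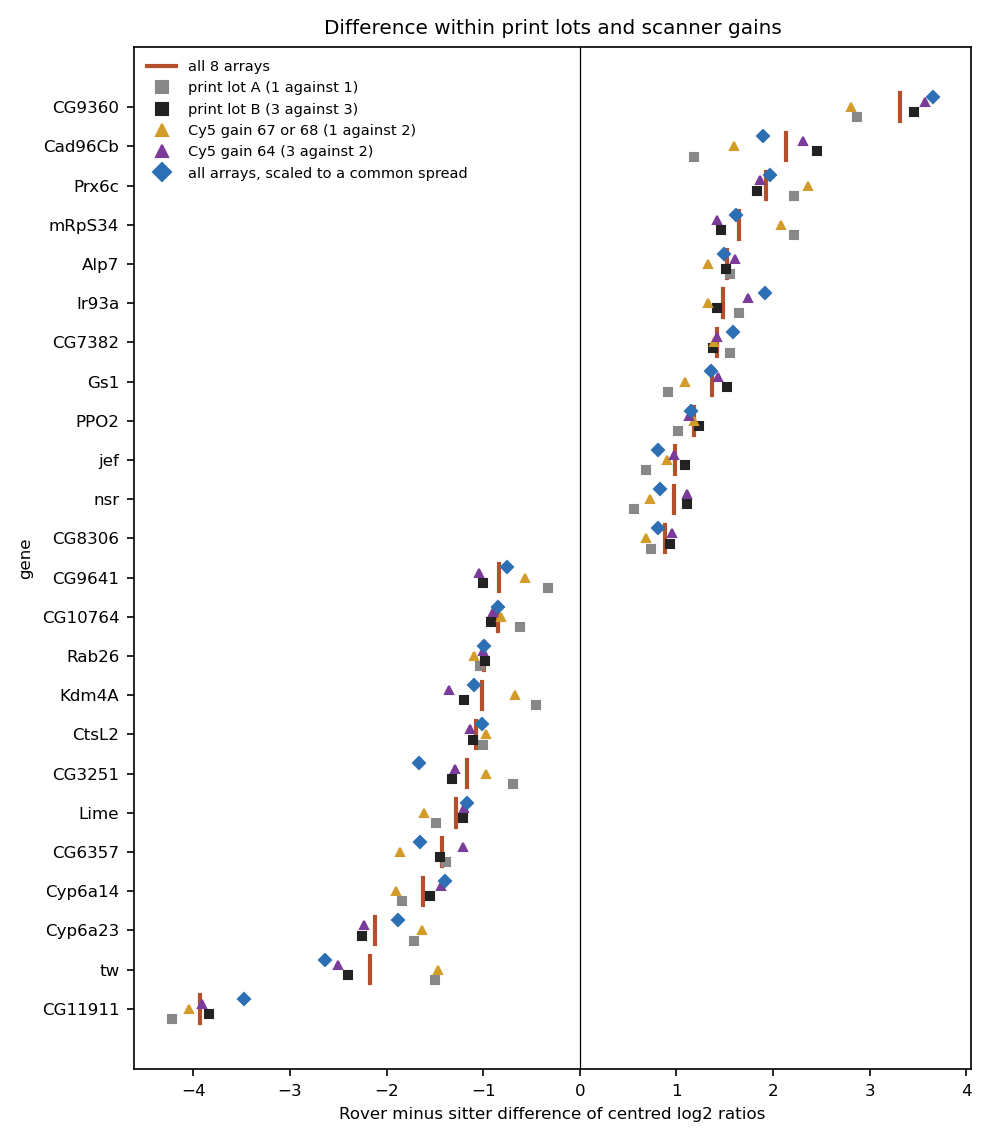
Rover minus sitter difference of centred log2 ratios for the same 24 genes over all 8 arrays (bar), within each print lot, within each range of Cy5 gain and after scaling the arrays to a common spread. Every value has the sign of the whole, and CG11911 stays between -4.22 and -3.48.

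The 6 genes called against 0 in both backgrounds with opposite signs (0.0883% of named genes) were CG9360, Prx6c, Alp7, CG7382, Gs1 and CG6357. The first 5 were positive in Rover and negative in sitter, and CG6357 was the reverse. For CG7382 this holds for the mean of its spots and for the second pair, whereas the first pair had positive means in both backgrounds. Over all named genes 25.2% were called positive and 21.2% negative in Rover, against 3.14% and 8.61% in sitter. These shares hold for centred arrays that were not scaled. The SD of the means over named genes was 0.47 in Rover and 0.36 in sitter as centred, and 0.38 and 0.42 after scaling. When each background was fitted on its own arrays, all 6 had adjusted p under 0.05 in Rover, from 0.025 to 0.043. In sitter CG9360 did (0.0321) and the other 5 did not (0.0518 to 0.065).

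Genes with separate arrays were more varied. The Rover and sitter arrays of 611 named genes did not overlap (8.99%), 481 with Rover higher (7.08%) and 130 with Rover lower (1.91%). Of the 481, 322 had a positive mean in both backgrounds that was larger in Rover, 151 had opposite signs and 8 were negative in both. Of the 130, 97 had opposite signs, 24 were negative in both and 9 positive in both.

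The balance between directions depended on the scaling. As deposited, 107 genes were separate with Rover higher (1.58%) and 423 with Rover lower (6.23%), because the median difference of all named genes then was -0.17. With the arrays centred and scaled to a common spread the numbers were 376 (5.54%) and 155 (2.28%), and the genes positive in both backgrounds and higher in Rover fell from 322 to 150. Opposite signs after scaling were found for 146 of the 376 and 95 of the 155.

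Gene lists were compared with the 6793 named genes, of which 55.7% were higher in Rover, 9.5% had an unadjusted p under 0.05, 8.99% had separate arrays and the median difference was 0.04. Apart from Prx6c, Alp7 and PPO2, no member of any of the 26 lists was called by limma over all features. The lists describe these arrays and were not tested as sets.

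Glycolysis and gluconeogenesis are the breakdown of glucose and its resynthesis. Of the 14 measured genes 13 were higher in Rover, 6 had an unadjusted p under 0.05 (42.9%), 3 had separate arrays, and the median difference was 0.43. Pepck2, a phosphoenolpyruvate carboxykinase of gluconeogenesis, was at 1.32, 1.39, 0.10 and 0.96 on Rover arrays 1 to 4 and at -0.51 to -0.22 in sitter (difference 1.24 ± 0.27 SE; adjusted p = 0.188, and 0.0312 without Rover replicate 3). Eno, the glycolytic enolase, was at 0.30 to 0.71 in Rover. In sitter it stood at 0.05, 0.11, 0.12 and -0.74 on arrays 1 to 4 (0.62; 0.478). fbp, the phosphatase specific to gluconeogenesis, differed by 0.45 and phosphoglycerate kinase, Pgk, by 0.48. The median of the list on single arrays was 0.43, 0.70, 0.08 and 0.51 in Rover and -0.06, 0.14, 0.10 and -0.19 in sitter. Rover replicate 3 lay within the sitter range. Relative to all named genes, 13 of the 14 lay above the median difference as centred, 14 after scaling, 11 in lot B alone and 12 at the lower Cy5 gain.

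Enzymes that handle glutamine and amino acids split. Besides Gs1, separate arrays with Rover higher were found for Gfat1, which uses glutamine to make hexosamines (0.52), and for glutamate dehydrogenase, Gdh (0.42), with adjusted p of 0.377 and 0.449. The cytoplasmic glutamine synthetase Gs2 differed by -0.05. In all, 5 of 9 members were higher in Rover and 4 had an unadjusted p under 0.05.

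Alkaline phosphatases had 7 of 9 members higher in Rover and 3 separate. Besides Alp7, Alp2 stood at 0.36 to 0.76 in Rover and at -0.63 to 0.08 in sitter (difference 0.84 ± 0.19 SE; adjusted p = 0.196). Alp6 was positive in both backgrounds, at 0.41 to 0.68 and 0.09 to 0.36 (0.35; 0.534). The median of the list was 0.36, and 7 members lay above the median of all named genes after scaling and 4 at the higher Cy5 gain, where the list median was -0.32.

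Detoxification enzymes moved in both directions. Of 73 cytochrome P450 genes 39 were higher in Rover, 9 with an unadjusted p under 0.05, and 5 of the 34 lower genes had one. The median difference was 0.04, as for all genes. Against Cyp6a14 and Cyp6a23 stood Cyp6a8, at -0.48 to 0.09 in Rover and -1.38 to -0.61 in sitter (0.99 ± 0.21 SE; adjusted p = 0.182). These are means of 6 spots that disagree: 2 spots differed by -0.04 and -0.14 and the other 4 by 1.42 to 1.58. Cyp4e3 was at 0.39 to 1.01 in Rover and -0.32 to 0.09 in sitter (0.95; 0.138). Glutathione S-transferases, which couple glutathione to foreign compounds, had 14 of 23 members higher and 6 with an unadjusted p under 0.05, all higher. GstE3 was at 2.11, 2.37, 1.43 and 1.41 on Rover arrays 1 to 4 and at 0.12, 0.34, 1.14 and 0.27 on sitter arrays 1 to 4 (1.36 ± 0.29 SE; 0.183). The arrays of GstE3 did not overlap, and both backgrounds were positive. Of 12 UDP-glycosyltransferases none had an unadjusted p under 0.05.

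Storage and fat body proteins had a list median of 0.52 as centred, 0.33 after scaling and 0.36 without sitter replicate 4. Of 9 measured genes 7 were higher in Rover, 4 with an unadjusted p under 0.05, and 3 had separate arrays. Fbp2, a fat body protein, was at 0.37, 0.95, 4.27 and 2.17 on Rover arrays 1 to 4 and at 0.09, -0.14, -0.65 and -4.13 on sitter arrays 1 to 4. The arrays were separate, but Rover 1 and sitter 1 were 0.28 apart, and the difference of 3.15 ± 1.05 (SE; adjusted p = 0.441) went to 2.37 without Rover replicate 3 and 2.18 without sitter replicate 4. Lsp2, a larval serum protein stored for metamorphosis, differed by 2.31 ± 0.77 (SE; 0.445). It reached 2.24 on Rover 3 and -3.70 on sitter 4. apolpp, the lipid carrier of the haemolymph, was steadier as a mean of 4 spots, at 0.28 to 0.62 in Rover and -0.58 to 0.12 in sitter (0.69 ± 0.19 SE; 0.331). Its spots differed by 0.455 to 0.929 between backgrounds. On Rover 3, 1 spot stood at -1.26 and the others at 0.70 to 0.94.

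The same arrays were extreme for 2 genes outside the list. CG1850 was at 0.38, 0.61, 3.75 and 2.18 on Rover arrays 1 to 4 and at -0.05, 0.11, -0.09 and -5.61 on sitter arrays 1 to 4. Its difference of 3.14 ± 1.28 (SE; adjusted p = 0.516) fell to 1.74 without sitter replicate 4. Obp99b, of the odorant-binding protein family, was at -0.37, 0.03, 3.06 and 2.20 in Rover and at 0.21, -0.16, -0.56 and -3.26 in sitter (2.17 ± 0.92 SE; 0.53). For both genes, as for Fbp2, the values of highest size fell on Rover 3, Rover 4 and sitter 4. In the single pair of lot A the difference was 0.28 for Fbp2, 0.43 for CG1850 and -0.58 for Obp99b.

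Salivary glue and late puff genes, active as the larva nears the pupa, also had single arrays far from the others. Eig71Ee was at 4.12 and 5.24 on Rover 3 and 4 and at -4.72 on sitter 3, with the other arrays between -0.84 and 0.38 (difference 3.63 ± 1.44 SE; adjusted p = 0.503). The glue gene Sgs4 was at -2.89 and -3.32 on Rover 1 and 2 and between -0.38 and 0.33 on the other arrays (-1.65 ± 0.69 SE; 0.53). These are means of 4 spots that disagree in size, with differences of -0.77 and -0.62 in the first pair and -2.69 and -2.54 in the second. In lot A Eig71Ee differed by -0.50. Both Sgs4 and Eig71Ee were thus lower on Rover 1 and 2 than on Rover 3 and 4. None of the 6 measured genes had separate arrays, and 3 had an unadjusted p under 0.05. Of 11 genes of the ecdysone response, only usp, a subunit of the ecdysone receptor, had an unadjusted p under 0.05 (0.57 ± 0.15 SE; 0.313). Whether differences in larval age between extracts enter these values was not tested.

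Genes of the midgut list, the digestive enzymes, had 17 of 23 members higher in Rover and 4 with an unadjusted p under 0.05, all Jonah proteases. Jon65Ai stood at 0.34 to 0.78 in Rover and -0.24 to 0.16 in sitter (difference 0.47 ± 0.17 SE; adjusted p = 0.465). In the muscle list 8 of 9 were higher in Rover, 1 with an unadjusted p under 0.05 (Mlc2, a myosin light chain, 0.51; 0.467). Its median on single arrays was -0.05 to 0.57 in Rover, against -0.12 to 0.27 in sitter. Of 9 testis genes 6 were lower in Rover and none had an unadjusted p under 0.05.

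**Figure D5:**
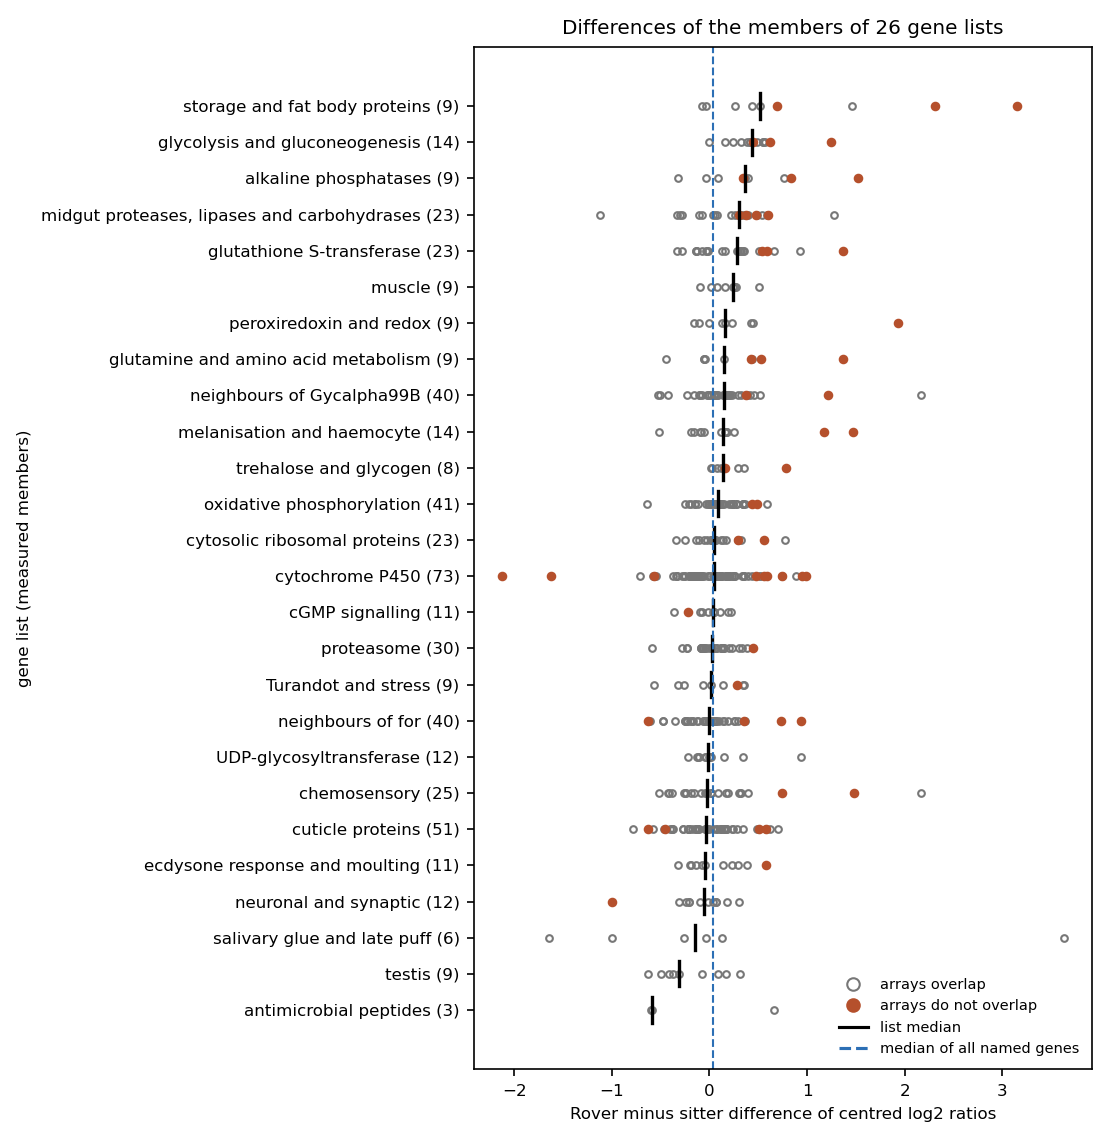
Rover minus sitter difference of each measured member of 26 gene lists, ordered by list median (black bar), with the number of members in parentheses. Filled points are genes whose arrays do not overlap, and the dashed line is the median of all named genes (0.04). Storage proteins (0.52), glycolysis (0.43) and alkaline phosphatases (0.36) have the highest medians as centred, an order that changes after scaling and between gains, and for the pathway of the mutated gene the median was 0.03.

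Signalling by cGMP itself gave no called difference. Of 11 measured genes 6 were higher in Rover, none had an unadjusted p under 0.05, and the differences ran from -0.36 for Pde1c to 0.22 for Gycalpha99B. Only Pde6, a cGMP phosphodiesterase, had separate arrays, at -0.22 to -0.02 in Rover and 0.03 to 0.17 in sitter (-0.22 ± 0.14 SE; adjusted p = 0.658). In the neuronal and synaptic list, 7 of 12 genes, Rab26 among them, were lower in Rover and 5 higher, and Rab26 alone had an unadjusted p under 0.05. The potassium channel Sh differed by -0.31, the prohormone convertase helper 7B2 by -0.24 and nSyb, a vesicle fusion protein of synapses, by 0.31, with adjusted p of 0.684, 0.716 and 0.61.

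All 8 genes of trehalose and glycogen metabolism were higher in Rover, with a median difference of 0.14 and 1 unadjusted p under 0.05. None of 9 Turandot and stress genes (median 0.01) had one. Nor had the 3 measured immune genes, the antifungal peptide gene Drs (-0.60), its relative Drsl5 (-0.59) and PGRP-LB, a peptidoglycan amidase (0.66). The median of these 3 was -0.59 over all arrays, 0.0074 without Rover replicate 3 and 0.22 at the higher Cy5 gain. Cytosolic ribosomal proteins had a median difference of 0.05, with 17 of 23 members higher in Rover and 2 at an unadjusted p under 0.05. Oxidative phosphorylation had a median of 0.09, with 31 of 41 higher and 2 at that level, and the proteasome 0.03, with 16 of 30 higher and 2 at that level. At the higher Cy5 gain alone the medians of these 3 lists were -0.05, 0.36 and -0.30, and at the lower gain 0.11, -0.01 and 0.12. Cuticle proteins had 5 members higher and 2 lower at that level, of 51. Of 25 chemosensory genes 3 had an unadjusted p under 0.05, Ir93a, Obp56d (0.74, its 6 spots from -0.02 to 1.09) and Obp99b, and the median was -0.02.

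Genes near the mutated gene and near for were counted as well. Among the 40 measured genes that flank Gycalpha99B, 20 on each side in the Release 6 gene table, 4 had an unadjusted p under 0.05 (10%) and 2 had separate arrays (5%). The median difference was 0.14, and 28 of the 40 lay above the median of all named genes as centred and 21 after scaling. Around for the numbers were 5 (12.5%) and 4 (10%), with a median of -0.00. Of the 6 called genes 3 lie on arm 2R, 2 on 2L and 1 on X. Per arm 8.32% to 11.8% of genes had an unadjusted p under 0.05 on the 5 large arms, highest on 2R.

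The other 9 called features were spots without a gene name, 7 higher and 2 lower in Rover. Spots 11249 and 11250, which are neighbours, were at 0.44 to 0.75 in Rover and -2.08 to -1.40 in sitter. Their differences were 2.43 and 2.37 (adjusted p = 0.000844 each), next to CG9360 in p. Spots 3643 and 3644 were at -2.13 to -1.36 in Rover and 0.13 to 0.58 in sitter, with differences of -1.95 and -1.83 (adjusted p = 0.00937 and 0.00147). The spots of the genes named in the text also lie in adjacent pairs. Each pair here may thus be 1 gene spotted in duplicate and counted as 2 features. Without a gene name this could not be checked, and such spots were not averaged.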

How the data were processed

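Total RNA of larvae was hybridised to 8 spotted cDNA arrays. Per the labels, a ScanArray 4000 read the slides, QuantArray version 3 measured the spots with no background subtracted, and the authors took the deposited ratio from normalised intensities, by a method the sources used here do not give. Values were signed and were taken as deposited log2 ratios. The table held 27648 spots per array and 0 missing values. Of these, 15116 spots had 1 gene symbol, 102 several and 12430 none here; gene IDs of 14894 spots matched the gene table and 222 did not. Spots of a gene were averaged per array (6793 genes), 12532 other spots were kept, and each array was centred on its median.

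limma 3.58.1 in R 4.3.3 fitted a mean per background (6 residual degrees of freedom) with empirical Bayes moderation. The contrast was Rover minus sitter, and Benjamini-Hochberg adjustment ran over 19325 features with a threshold of 0.05. All adjusted p-values are from this fit unless stated. Separate arrays means that no Rover value overlaps a sitter value. The number of arrays limits the precision, and signal over background is not given, so dim spots were not filtered. The members and lists were chosen with earlier results of these data known. A rule picked 119 genes: all called genes, 12 per direction by p and the 3 largest per direction with separate arrays. It also took genes of opposite called signs, up to 4 members per list by p, and the targeted gene. The text leaves out some of these list members. Hml, NimC1, eater, Prx6a and Gs2 were added as relatives or markers after their values were seen. The fit was first tested on simulated data. Alternatives were no centring, scaling, named genes alone, single spots, robust moderation, array weights, blocks, single lots or gains, and leaving out each array.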

Additional observations from a re-analysis of the deposited data

Results flagged for a closer look

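The response differed between backgrounds by limma's interaction test for CG11911 (-3.93), CG9360 (3.32), Prx6c (1.93), Alp7 (1.52), CG7382 (1.43) and PPO2 (1.18), as Rover minus sitter on the log2 scale. The value of CG7382 averages spots that disagree, at -0.08 and -0.23 in the first pair and 2.79 and 3.19 in the second.

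In 238 groups of 4 arrays, 19 held an array far from the other 3 by Dixon's criterion, which chance meets in about 1 of 20 groups. In Rover, replicate 1 stood apart for TwdlW (0.30), Pde1c (-1.37), Gyc89Db (-0.23) and CG2955 (-1.22), and replicate 2 for Brd8 (-0.011). Replicate 3 stood apart for Cyp6a23 (-3.23) and Drs (-0.75, the others 1.61 to 1.75). Replicate 4 stood apart for Cyp6a14 (-0.88), Jon99Fii (0.74), Cyp6a8 (-0.48), RpS10a (0.67) and ND-B22 (0.25). In sitter, replicate 1 stood apart for Pepck2 (-0.51), and replicate 3 for tw (2.68), PGRP-LB (-1.36) and Obp56d (-0.92). Replicate 4 stood apart for CG1850 (-5.61, the others -0.09 to 0.11), Eno (-0.74) and Mst77F (0.41).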

How the results depend on the processing

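CG11911 and CG9360 were the 2 named genes called whichever array was left out. Called features then numbered 5 to 11 against 15, and called named genes 2 to 5 against 6. Features called (named genes in parentheses) were 9 (4) as deposited, 1 (1) after scaling, 25 (10) with array weights, 9 (3) with the Cy5 gain as a covariate, 7 (2) in print lot B alone and 25 (12) with each spot as its own feature. As deposited, 2 of the 4 named genes, CG11911 and CG9360, were among the 6; Prx6c, PPO2, Alp7 and CG7382 lost the call (adjusted p of 0.0584 to 0.102), and CtsL2 (0.0396) and Rab26 (0.0437) gained it. Robust moderation gave 15 (6) and the print lot as a block 11 (5). Named genes fitted alone gave 24. Of the called features 80% were higher in Rover as centred and 44.4% as deposited, and of the called named genes 83.3% and 25%. limma called 0 (0) at gain 64 alone and 0 (0) at gain 67 or 68 alone, with 5 and 3 arrays and with 1446 and 1656 features at an unadjusted p under 0.05. With the replicate number as a block 6 (2) were called, all among the 15 (6). Deviations of same-numbered arrays correlated at 0.31, 0.12, 0.06 and 0.06, and those of arrays with different numbers at -0.26 to 0.17. These values do not exclude a pairing. The main fit did not pair arrays because the labels do not state that the numbers are pairs.

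For the 119 genes picked by the rule, under 12 settings, 1354 of 1428 values kept direction and side of the threshold. A call was lost by 37 and gained by 20, and 17 changed sign, none of them for a called gene. At gain 67 or 68 alone the values that changed sign were Fbp1 -0.33, Eig71Eh -0.051, Eip93F -0.044, Ugt316A1 -0.13, Drs 0.22, Gycalpha99B -0.43, Sh 0.060, Act88F -0.080 and Tm2 -0.092. As deposited they were Eig71Eh -0.082, Tret1-1 -0.053, Ugt305A1 -0.061, Pxn -0.045 and Gyc89Db -0.027. After scaling they were Eig71Eh -0.0055 and Ugt37A1 0.044, and in lot B alone Pde1c 0.041. Leaving out arrays, Drs ranged from -0.84 to 0.0074 and Gycalpha99B from -0.046 to 0.46. The cause of these changes was not tested.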
